A study of Mus musculus with 9 samples.

Results

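Matrix metalloproteinases, their tissue inhibitors and urokinase were followed in 4T1 cells, a mouse mammary carcinoma line, after knockdown of Yap1. The 10 genes are Mmp3, Mmp9, Mmp10, Mmp13, Mmp14, Mmp15, Timp1, Timp2, Timp3 and Plau, chosen by symbol through the GENCODE vM21 annotation. All 10 had a row in both expression tables, out of 16962 genes listed in either table and 15926 in both. The libraries form 3 groups of 3 replicates: 4T1 cells with hairpin shYap-1 against Yap1, 4T1 cells with hairpin shYap-2 against Yap1, and 4T1 cells with a negative-control hairpin (shCTRL), whose genotype is labelled WT. The labels do not state the vector, the time after knockdown, whether cells were pools or clones, or whether replicates were separate cultures, so p-values measure only the spread between these libraries. The stated purpose of the series is to find genes that change after Yap knockdown in breast cancer cells.

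Matrix metalloproteinases (MMPs) are zinc-dependent enzymes, made as inactive proenzymes, that cut collagens, proteoglycans and other proteins outside the cell. Most are secreted, whereas the membrane-type enzymes stay on the cell surface. The tissue inhibitors of metalloproteinases (TIMPs) block the active site, and TIMP2 also takes part in the activation of pro-MMP2 by MT1-MMP, the product of Mmp14. Urokinase, the product of Plau, turns plasminogen into plasmin, which degrades fibrin and activates several proenzymes of the MMP family. In mammary tumours these genes are known for their part in invasion, and many of them are made by stromal cells and leukocytes as well as by tumour cells.

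Mmp3, Mmp10 and Mmp13 lie in a cluster of MMP genes on chromosome 9, on the same side of Yap1, which lies outside the cluster. Their upstream sequences are shown because these neighbours, which share 2 promoter motifs, differed in whether they passed the test. The 120 bases before each RefSeq start are printed on the plus strand of GRCm38.p6, for Mmp3 at chr9:7445702-7445821, Mmp10 at chr9:7502222-7502341 and Mmp13 at chr9:7272394-7272513. Capitals mark matches to TGANTCA (the motif of AP-1, the factor family of FOS and JUN proteins) and to TATAAA.
Mmp3: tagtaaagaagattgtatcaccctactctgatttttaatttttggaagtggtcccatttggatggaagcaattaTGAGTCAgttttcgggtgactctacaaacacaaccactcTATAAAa
Mmp10: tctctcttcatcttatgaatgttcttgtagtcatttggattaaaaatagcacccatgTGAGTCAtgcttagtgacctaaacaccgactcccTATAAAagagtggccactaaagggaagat
Mmp13: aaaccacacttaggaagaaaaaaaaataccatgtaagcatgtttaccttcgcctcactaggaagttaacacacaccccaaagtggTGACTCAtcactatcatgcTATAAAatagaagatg

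The AP-1 match began at -46 in Mmp3, -63 in Mmp10 and -35 in Mmp13, counted from the RefSeq start, and the TATAAA match at -7 in Mmp3, -29 in Mmp10 and -16 in Mmp13. On either strand, TGANTCA was found in the 250 bases before the start in 6.75% of 32851 windows of all genes, and TATAAA (reverse TTTATA) in 12.4%. RefSeq windows were matched for 8 of the 10 genes, all but Mmp9 and Plau. Among these 8, Mmp3, Mmp10 and Mmp13 held TGANTCA, and the same 3 held TATAAA. The motif of the TEAD partners of YAP, GGAATG (reverse CATTCC), was found in 12.6% of all windows and in the Timp1 window. An ETS-type motif, AGGAAG (reverse CTTCCT), was found in 29.5% of all windows and in those of Mmp3, Mmp13, Mmp14, Timp1 and Timp3. The NF-kB motif, searched on both strands, was found in 0.356% of all windows and in 0 of the 8. The matches printed in capitals do not overlap each other, and a match describes letters only.

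Gene abundance is in FPKM, fragments scaled by transcript length and by the number of mapped fragments, which allows levels of different genes to be compared per length. Depth, estimated from the steps between low FPKM values, was 19.55 to 28.25 M fragments in shYap-1 libraries, 21.85 to 27.35 M in shYap-2 libraries and 22.15 to 24.5 M in shCTRL libraries. The shYap-1 library of replicate 2 stood apart. The deviation of a library's genes from the other replicates of its group had a Spearman rho with GC content of -0.674, 0.747 and -0.591 in shYap-1 replicates 1, 2 and 3, over 10731 genes, which are not independent replicates. In the same order it was -0.3876, 0.0033 and 0.3945 in shCTRL and -0.1944, 0.0903 and 0.0929 in shYap-2 libraries. Deviations within a group depend on each other. In replicate 2, 2.01% of FPKM came from mitochondrially encoded genes, against 3.04% to 4.23% in the other 8 libraries. Yap1 averaged 8.77 ± 0.647 FPKM with shYap-1, 10.4 ± 0.626 with shYap-2 and 48.8 ± 0.475 with shCTRL (SD, n = 3 each). The 6 epithelial markers (Epcam, Krt8, Krt18, Krt14, Krt19 and Cdh1) ranged from 43.32 to 1126.35 FPKM over the 9 libraries. With either hairpin Krt14 (1.79 and 1.36 on the log2 scale, with shYap-1 and shYap-2), Krt19 (1.42 and 1.16) and Krt8 were called higher and Krt18 lower, and their part in the results was not tested. Of 9 leukocyte markers with a value (8 in the shYap-2 table), Cd68 made up most of a summed level of 5.15 to 6.12 FPKM in shYap-1, 5.28 to 5.84 in shYap-2 and 8.35 to 8.93 in shCTRL libraries. The pan-leukocyte gene Ptprc did not exceed 0.14 FPKM, and 1 to 4 of these markers were at 0 in each library. The sum over 9 fibroblast and endothelial markers was 2.8 to 3.14 FPKM in shYap-1, 2.38 to 3.17 in shYap-2 and 4.14 to 4.53 in shCTRL libraries, with 1 to 4 at 0. Both sums were lower in every knockdown library than in every shCTRL library, through Cd68 and Pdgfra. Without Cd68 the leukocyte sum was 1.04 to 2.3 FPKM in shYap-1, 0.59 to 1.13 in shYap-2 and 0.63 to 1.24 in shCTRL libraries. The remaining markers did not move together. Ptprc, Itgam and Csf1r were each higher in every knockdown library than in every shCTRL library. S100a8 was lower in every knockdown library (at most 0.15 FPKM, against 0.17 to 0.59 in shCTRL libraries). Adgre1, Lyz2 and S100a9 overlapped shCTRL with both hairpins. Without Pdgfra the other sum was 0.74 to 0.97 FPKM in shYap-1, 0.5 to 0.89 in shYap-2 and 0.4 to 0.72 in shCTRL libraries. Those markers did not move together either. Col1a1 was higher in every knockdown library (0.27 to 0.55 FPKM, against 0.15 to 0.23 in shCTRL libraries). Lum was lower in every shYap-2 library (at most 0.01 FPKM, against 0.02 to 0.06 in shCTRL libraries) and overlapped shCTRL with shYap-1. Pdgfrb, Col3a1, Dcn, Pecam1, Cdh5 and Kdr overlapped shCTRL with both hairpins. The part of these markers in the results was not tested. Fewer cells of a type and less RNA per cell cannot be told apart in such bulk samples.

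Mmp9, Mmp3, Mmp15, Timp1, Timp2 and Plau rose with both hairpins, by 1.16-fold (Plau, shYap-1) to 2.34-fold (Timp2, shYap-1) in mean FPKM. Mmp13 rose with shYap-2 and did not pass the test with shYap-1. Mmp10 and Mmp14 did not pass with either hairpin, and Timp3 was too low to be tested. Of the 9 tested genes, 6 were called higher with shYap-1, where 37.6% of 10647 tested genes were called higher and 27.6% lower. With shYap-2, 7 of the 9 were called higher, where 43.2% of 10615 tested genes were called higher and 30.5% lower. Mmp15 passed the filter on low values only through the knockdown libraries, so it could be called only as higher; without it the counts were 5 of 8 with shYap-1 and 6 of 8 with shYap-2. None of the 9 was called lower with either hairpin in limma (0 also at unadjusted p under 0.05). Both comparisons use the same 3 shCTRL libraries, so their calls are not independent. Values that did not overlap were common among all tested genes. With shYap-1, 4317 of 10647 tested genes had all values above shCTRL and 3261 had all below. With shYap-2, 4746 of 10615 had all values above shCTRL and 3380 had all below.

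**Figure D1:**
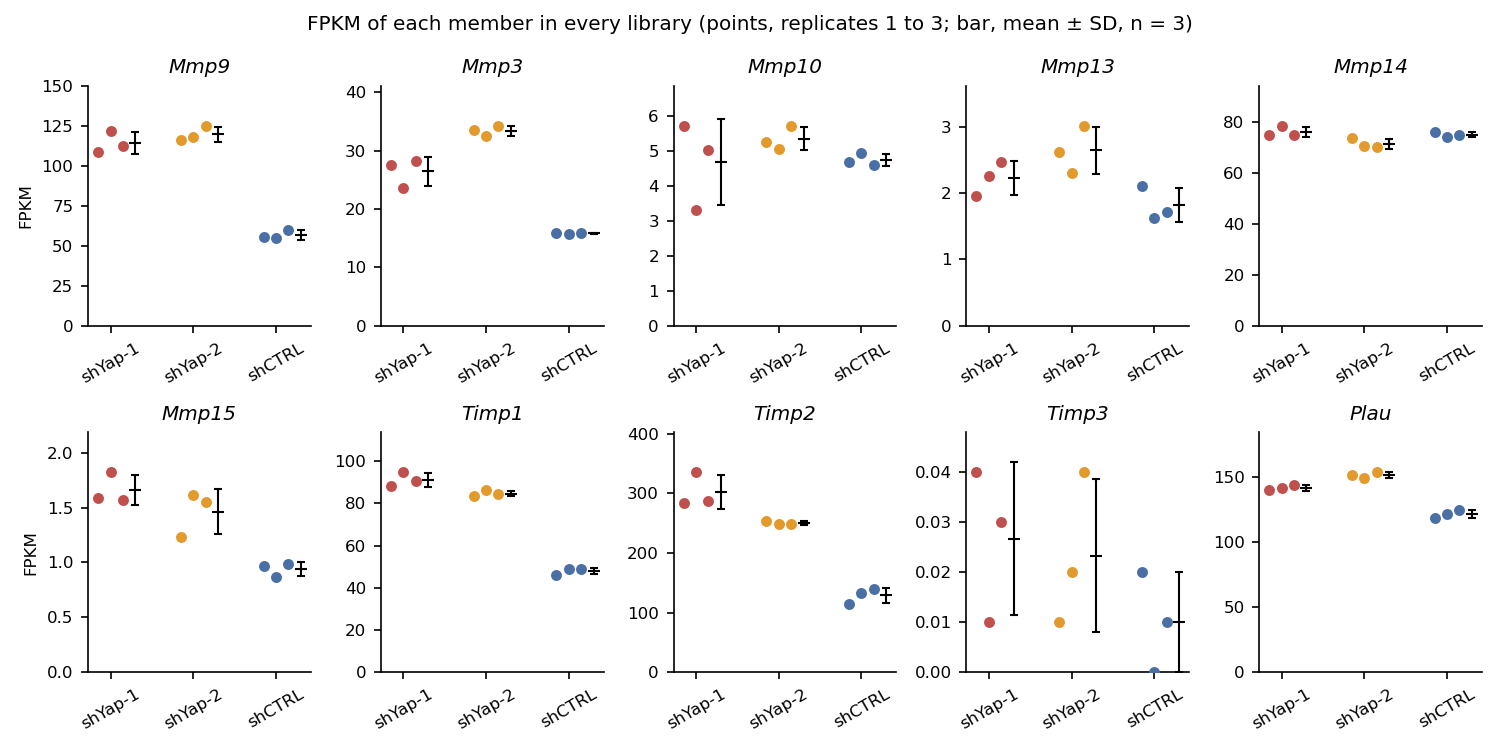
FPKM (y axis, from 0) of each of the 10 genes by group (x axis), with 1 point per replicate and the mean ± SD (n = 3) as a black bar beside the points. The Mmp9, Mmp3, Mmp15, Timp1, Timp2 and Plau values of all 6 knockdown libraries lie above those of all 3 shCTRL libraries, while Mmp14 stays between 70.1 and 78.4 FPKM throughout.

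Among the secreted MMPs, Mmp9 had the highest level. It encodes gelatinase B, which cuts denatured collagen and type IV collagen of basement membranes, and lies on chromosome 2 from 164940780 to 164955850 (GRCm38, as for all gene positions). Mmp9 had 108.65, 122.24 and 112.47 FPKM with shYap-1, 116.67, 118.0 and 125.23 FPKM with shYap-2, and 55.44, 54.93 and 60.11 FPKM with shCTRL. All 6 knockdown libraries were above all 3 shCTRL libraries, and the hairpins overlapped each other. The log2 fold change was 1.00 (SE 0.0671, adjusted p = 1.54e-05) with shYap-1 and 1.07 (SE 0.0450, adjusted p = 7.43e-08) with shYap-2. Fold changes on the log2 scale are from limma on log2(FPKM + 1), which understates changes of genes with low FPKM, and the Benjamini-Hochberg adjustment of p covers all genes tested.

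Mmp3 encodes stromelysin-1, which cuts proteoglycans and laminin and activates other pro-MMPs. It lies on chromosome 9 from 7445822 to 7455975. Mmp3 had 27.58, 23.67 and 28.15 FPKM with shYap-1, 33.48, 32.48 and 34.24 FPKM with shYap-2, and 15.9, 15.75 and 15.95 FPKM with shCTRL. The 3 groups did not overlap, with shYap-2 on top and shCTRL at the bottom. It rose by 0.70 on the log2 scale (SE 0.0797, adjusted p = 0.000192) with shYap-1 and by 1.03 (SE 0.0412, adjusted p = 5.61e-08) with shYap-2. The lowest shYap-1 value came from the library that stood apart, and without it the rise with shYap-1 was 0.78 (adjusted p = 5.27e-06).

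Mmp10 encodes stromelysin-2, the close relative of Mmp3, and lies in the same cluster and orientation, beyond Mmp1a, from 7502352 to 7510240. Its level was 5.72, 3.31 and 5.03 FPKM with shYap-1, 5.27, 5.07 and 5.71 FPKM with shYap-2, and 4.69, 4.94 and 4.61 FPKM with shCTRL. The shYap-1 values spread to both sides of the shCTRL values, and the shYap-2 values lay slightly above them. Mmp10 had a log2 fold change of -0.04 (SE 0.160, adjusted p = 0.841) with shYap-1 and 0.14 (SE 0.0679, adjusted p = 0.0839) with shYap-2. The value of 3.31 FPKM, again in shYap-1 replicate 2, rests on about 111 fragments, and without that library the fold change was 0.15 (adjusted p = 0.139). The sharing of reads between Mmp3 and Mmp10 was not tested.

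Mmp13, collagenase-3 and the main interstitial collagenase of mice, was low in all groups. It lies from 7272514 to 7283331 on chromosome 9. Mmp13 had 1.96, 2.25 and 2.47 FPKM with shYap-1, 2.62, 2.3 and 3.01 FPKM with shYap-2, and 2.11, 1.63 and 1.71 FPKM with shCTRL. With shYap-2 every value was above every shCTRL value, whereas shYap-1 overlapped shCTRL. It rose by 0.37 with shYap-2 (SE 0.103, adjusted p = 0.00938) and had 0.20 with shYap-1 (SE 0.105, adjusted p = 0.136). The levels rest on about 96.5 to 188.7 fragments per library.

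The membrane-type enzymes were not tested against each other. Mmp14, which encodes the collagenase MT1-MMP of the cell surface and lies on chromosome 14 from 54431612 to 54445364, had 74.84, 78.4 and 74.8 FPKM with shYap-1, 73.52, 70.43 and 70.1 FPKM with shYap-2, and 76.14, 73.96 and 74.95 FPKM with shCTRL. The shYap-1 values overlapped shCTRL, and the shYap-2 values were all slightly below it. The log2 fold changes of 0.02 (SE 0.0511, adjusted p = 0.766) and -0.07 (SE 0.0339, adjusted p = 0.0834) did not pass the test. This result depended on the correction used. With a trend on GC content removed from each library, Mmp14 (58.3% GC) fell by 0.24 (adjusted p = 0.00575) with shYap-1 and by 0.30 (adjusted p = 8.37e-05) with shYap-2. With median-of-ratios scaling it fell by 0.14 with shYap-2 (adjusted p = 0.00384) and had -0.05 with shYap-1 (adjusted p = 0.458).

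Mmp15, which encodes the membrane-type enzyme MT2-MMP and lies on chromosome 8 from 95352268 to 95375080, was near the filter on low values. It had 1.59, 1.82 and 1.57 FPKM with shYap-1, 1.23, 1.61 and 1.55 FPKM with shYap-2, and 0.97, 0.87 and 0.99 FPKM with shCTRL. All knockdown values were above all shCTRL values. It passed the filter, under which 3 or more fitted libraries must reach 1 FPKM, only through the knockdown libraries. Its fold changes of 0.45 with shYap-1 and 0.34 with shYap-2 are therefore given from the fit with no filter (adjusted p = 0.00214 and 0.00900), and removal of the GC trend left it at 0.19 (adjusted p = 0.0714) and 0.11 (adjusted p = 0.293).

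The inhibitor genes Timp1 and Timp2 rose beside the proteases. Timp1, whose product blocks most secreted MMPs and binds pro-MMP9, lies on chromosome X from 20870166 to 20874735. It had 88.05, 94.61 and 90.79 FPKM with shYap-1, 83.4, 86.06 and 84.44 FPKM with shYap-2, and 46.22, 48.98 and 48.76 FPKM with shCTRL. Every knockdown value was above every shCTRL value, and the 2 hairpins did not overlap each other. It rose by 0.91 (SE 0.0564, adjusted p = 1.09e-05) with shYap-1 and by 0.81 (SE 0.0362, adjusted p = 1.07e-07) with shYap-2. Timp1 lies inside Syn1 on the opposite strand, and whether reads were counted by strand is not given in the sources used here. Syn1 itself was listed at no more than 0.2 FPKM in any library.

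Timp2, whose product links MT1-MMP to pro-MMP2, had the highest level of the 10 genes in each group. It lies on chromosome 11 from 118301069 to 118355740. Timp2 had 282.84, 334.9 and 287.54 FPKM with shYap-1, 254.27, 248.87 and 247.94 FPKM with shYap-2, and 114.88, 132.93 and 139.61 FPKM with shCTRL. The 3 groups did not overlap, in the order shYap-1, shYap-2 and shCTRL from high to low. Timp2 rose by 1.22 (SE 0.0957, adjusted p = 3.1e-05) with shYap-1 and by 0.95 (SE 0.0626, adjusted p = 1.03e-06) with shYap-2. The highest value belonged to shYap-1 replicate 2, without which the rise was 1.14 (adjusted p = 7.07e-06). Cep295nl overlaps Timp2 on the same strand. It had 2.08 to 2.67 FPKM with shYap-1, 2.34 to 2.59 with shYap-2 and 1.02 to 1.62 with shCTRL. The sharing of reads between Cep295nl and Timp2 was not tested.

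Timp3, the inhibitor that binds to extracellular matrix, was near 0. It had 0.04, 0.01 and 0.03 FPKM with shYap-1, 0.01, 0.02 and 0.04 FPKM with shYap-2, and 0.02, 0.0 and 0.01 FPKM with shCTRL. These values correspond to at most about 9.2 fragments in a library, so no difference was detectable at this depth. Timp3 lies on chromosome 10 from 86300372 to 86349506.

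Plau, which encodes the secreted protease urokinase, rose less than the inhibitors. It lies on chromosome 14 from 20836660 to 20843385. Plau had 139.35, 140.88 and 143.43 FPKM with shYap-1, 151.46, 148.92 and 153.19 FPKM with shYap-2, and 118.41, 121.63 and 124.34 FPKM with shCTRL. The 3 groups did not overlap. The rise was 0.22 (SE 0.0492, adjusted p = 0.00603) with shYap-1 and 0.31 (SE 0.0312, adjusted p = 1.63e-05) with shYap-2. Median-of-ratios scaling gave 0.15 with shYap-1 (adjusted p = 0.0481) and 0.24 with shYap-2 (adjusted p = 0.000199).

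**Figure D2:**
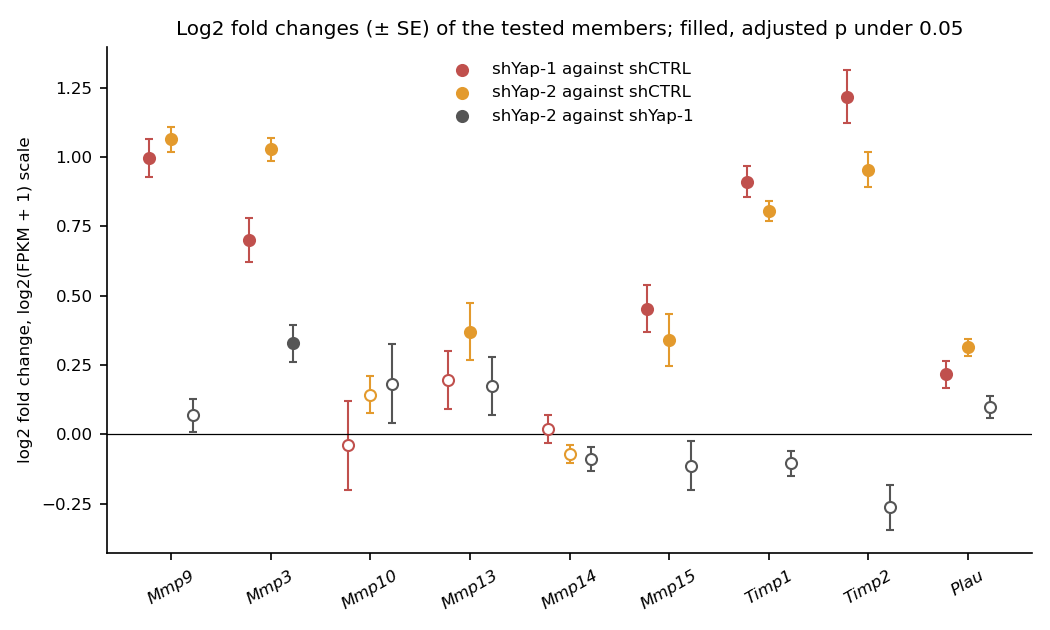
Log2 fold change ± SE on the log2(FPKM + 1) scale (y axis) of the 9 tested genes (x axis), with shYap-1 against shCTRL in red, shYap-2 against shCTRL in orange and shYap-2 against shYap-1 in grey. Filled points passed an adjusted p of 0.05. Timp2, Mmp9, Mmp3 and Timp1 lie between 0.70 and 1.22 with either hairpin, and Mmp14 lies near 0. Mmp15 passed the filter on low values only through the knockdown libraries, so its red and orange points could be filled only above 0. Of the grey points, only that of Mmp3 is filled.

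The hairpins were compared directly in a model of all 9 libraries, in which 1.93% of 10733 tested genes were called higher and 1.36% lower with shYap-2 than with shYap-1. Of the 9 tested members, Mmp3 was called, at 0.33 higher with shYap-2 (SE 0.0674, adjusted p = 0.0350), with all 3 shYap-2 values above all 3 shYap-1 values. The Mmp3 call ended when the shCTRL libraries were left out of the fit (adjusted p = 0.113). It also ended without any single library other than shYap-1 replicate 2 (adjusted p = 0.0512 to 0.140), and without that library it was 0.25 (adjusted p = 0.00519). None of the 9 was called lower in limma (2 at unadjusted p under 0.05, Timp1 and Timp2). Timp2 had -0.26 (SE 0.0817, adjusted p = 0.110) and Timp1 had -0.11 (SE 0.0464, adjusted p = 0.244). With the GC trend removed, Timp2 was lower with shYap-2 by 0.24 (adjusted p = 0.0266). Plau had 0.10 (SE 0.0396, adjusted p = 0.206) and Mmp9 had 0.07 (SE 0.0591, adjusted p = 0.581).

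The order of the levels was nearly shared by the groups. In shYap-1 and in shYap-2 libraries it ran, from high to low, Timp2, Plau, Mmp9, Timp1, Mmp14, Mmp3, Mmp10, Mmp13, Mmp15 and Timp3, and no neighbours in that order overlapped. In shCTRL libraries Mmp14 stood above Mmp9 and Timp1, and Timp2 (129.1 ± 12.8 FPKM, SD, n = 3) overlapped Plau (121.5 ± 2.97 FPKM, SD, n = 3), while the other neighbours did not overlap.

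The mixture of MMP transcripts differed in composition between the groups. Summed over 19 Mmp genes with values, the level was 263.9 ± 9.55 FPKM with shYap-1, 264.6 ± 5.76 with shYap-2 and 164.1 ± 3.68 with shCTRL (SD, n = 3 each). Mmp14 made up 28.8% ± 0.375 of that sum with shYap-1, 27.0% ± 1.07 with shYap-2 and 45.7% ± 0.906 with shCTRL. Mmp9 made up 43.3% ± 1.07 with shYap-1, 45.3% ± 0.882 with shYap-2 and 34.6% ± 1.09 with shCTRL. The sum of the 4 Timp genes was 392.9 ± 31.9 FPKM with shYap-1, 335.0 ± 2.63 with shYap-2 and 177.2 ± 14.3 with shCTRL. The ratio of the MMP sum to the TIMP sum was 0.673 ± 0.0296 with shYap-1, 0.790 ± 0.0222 with shYap-2 and 0.930 ± 0.0772 with shCTRL, and each knockdown library was below each shCTRL library. Timp2 per Mmp14 transcript, by FPKM, was 3.97 ± 0.268 with shYap-1, 3.51 ± 0.0443 with shYap-2 and 1.72 ± 0.188 with shCTRL. Timp1 per Mmp9 was 0.797 ± 0.0202 with shYap-1, 0.706 ± 0.0285 with shYap-2 and 0.846 ± 0.0415 with shCTRL. The shYap-1 and shCTRL values nearly met, at 0.810 and 0.811. These sums and ratios are descriptions of transcript levels, given without a test.

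**Figure D3:**
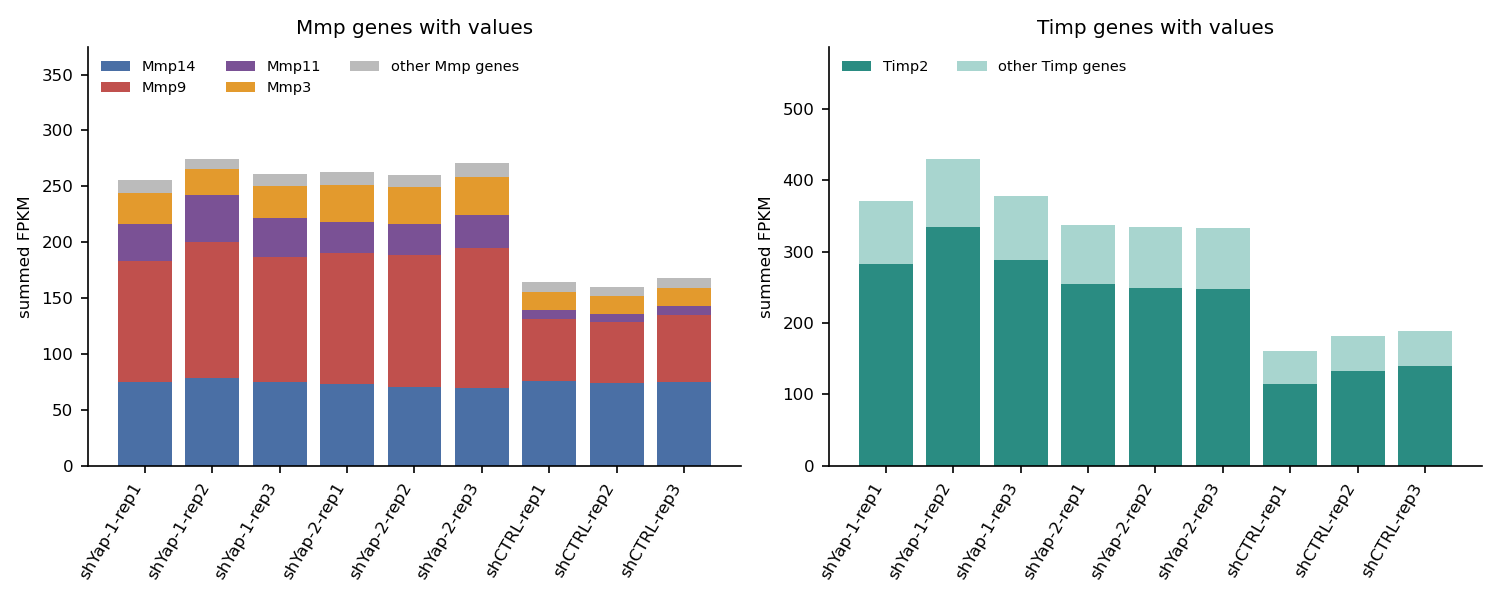
Summed FPKM (y axis) of the 19 Mmp genes with values (left) and the 4 Timp genes (right) in each library (x axis), stacked by gene. The Mmp14 segment has about the same height in all 9 libraries, whereas the Mmp9, Mmp11 and Timp2 segments are taller in the 6 knockdown libraries than in the 3 shCTRL libraries.

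Along chromosome 9, 14 genes are annotated as protein-coding or polymorphic pseudogenes in the 732.1 kb from the start of Mmp13 to the start of Yap1, 10 of them Mmp genes, of which 7 had values. Mmp10 ends 421.8 kb before the nearer end of Yap1. Mmp3 was the highest Mmp gene of the stretch, Mmp10 and Mmp13 followed, and Mmp12, Mmp1b, Mmp1a and Mmp27 averaged under 1 FPKM in every group. Mmp12 and Mmp1b overlap at their ends. Between the MMP genes and Yap1, Tmem123 averaged 35.8 ± 3.09 FPKM with shYap-1, 36.1 ± 1.18 with shYap-2 and 34.2 ± 3.14 with shCTRL (SD, n = 3 each), and was not called. Birc2, an inhibitor-of-apoptosis gene, was not called either (0.19, adjusted p = 0.0864, and 0.07, adjusted p = 0.385). Its neighbour Birc3, of the same family, fell by 0.72 (adjusted p = 0.000518) with shYap-1 and by 0.59 (adjusted p = 0.000444) with shYap-2. Along the stretch Mmp3 was called higher and Birc3 and Yap1 lower with both hairpins, and Mmp13 was called higher with shYap-2. The genes between the cluster and Yap1 were named for their position.

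**Figure D4:**
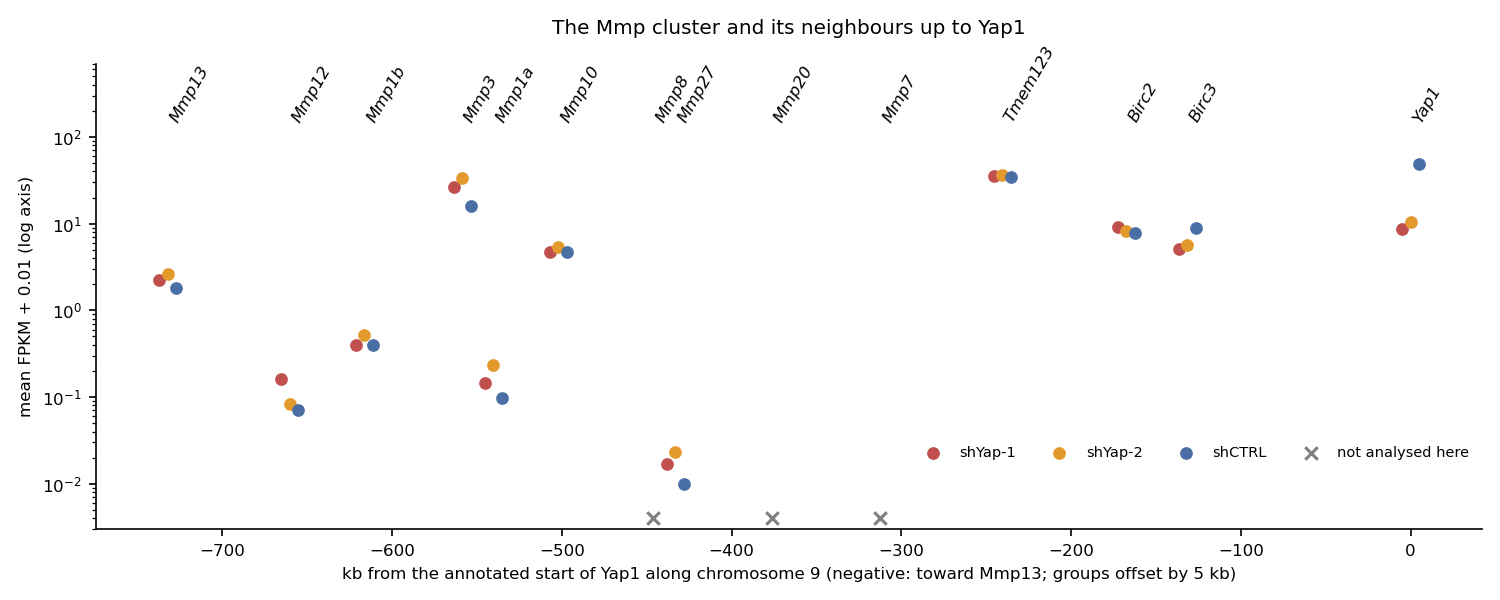
Mean FPKM + 0.01 (y axis, log scale) of the genes on chromosome 9 between Mmp13 and Yap1 by distance in kb from the annotated start of Yap1 (x axis), for shYap-1 (red), shYap-2 (orange) and shCTRL (blue). Crosses mark Mmp8, Mmp20 and Mmp7, not analysed here. The red and orange points lie above the blue at Mmp3 and below it at Birc3 and Yap1.

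Other genes of these protease systems were taken from lists made by function. Of 18 other Mmp and Timp genes, 14 had values and 1, Mmp11, passed the filter. Mmp11 encodes stromelysin-3, an MMP activated inside the cell by furin. It had 33.18, 41.31 and 34.72 FPKM with shYap-1, 27.64, 28.26 and 29.09 FPKM with shYap-2, and 7.66, 7.38 and 8.1 FPKM with shCTRL. The groups did not overlap, and the rise was 2.10 (SE 0.0941, adjusted p = 3.05e-06) with shYap-1 and 1.75 (SE 0.0513, adjusted p = 1.13e-08) with shYap-2. Both exceeded the change of each of the 9 tested members with the same hairpin. Mmp2, the gelatinase that TIMP2 and MT1-MMP activate together, did not exceed 0.24 FPKM in any library.

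All 8 tested genes of the plasminogen system list were called higher with shYap-1, and 7 of 8 with shYap-2, and 0 were called lower with either. Among all tested genes, 37.6% and 43.2% were called higher and 27.6% and 30.5% lower. Without Serpinb2, which passed the filter only through the knockdown libraries, the counts were 7 of 7 and 6 of 7. The median log2 fold change was 0.75 with shYap-1 and 0.63 with shYap-2 (0.64 and 0.56 without Serpinb2), beside 0.07 and 0.08 over all genes tested. Plat, the tissue-type plasminogen activator, rose by 1.31 and 1.22 (adjusted p = 9.6e-06 and 4.7e-07), and had 10.55 ± 0.280 FPKM with shYap-1, 9.80 ± 0.506 with shYap-2 and 3.65 ± 0.273 with shCTRL (SD, n = 3 each). Serpinb2, which encodes the plasminogen activator inhibitor PAI-2, had 3.55 to 5.46 FPKM in the knockdown libraries, against 0.5 to 0.6 FPKM in shCTRL libraries. With no filter its fold changes were 1.96 and 1.65 (adjusted p = 4.97e-05 and 5.17e-06). Anxa2, a plasminogen-binding surface protein gene, rose by 0.64 and 0.45 (adjusted p = 9.72e-05 and 2e-06). Lrp1, whose product clears complexes of protease and inhibitor, rose by 0.85 and 0.78 (adjusted p = 0.000175 and 6.12e-06).

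Plaur was singled out after its values were seen, as the receptor gene of urokinase. It rose by 0.87 (adjusted p = 0.00017) with shYap-1 and by 0.71 (adjusted p = 4.6e-07) with shYap-2. Plaur per Plau transcript was 1.21 ± 0.162 with shYap-1, 1.01 ± 0.0131 with shYap-2 and 0.763 ± 0.0231 with shCTRL (SD, n = 3 each).

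Of 9 tested genes of MMP activation, docking and restraint, 5 were called higher and 2 lower with shYap-1, and 6 higher and 2 lower with shYap-2. Among all tested genes, 37.6% and 43.2% were called higher and 27.6% and 30.5% lower, so the numbers called lower are near the background. Their medians were 0.60 and 0.52. Thbs1, which encodes thrombospondin-1, a matrix protein that binds MMPs, fell by 1.17 (adjusted p = 1.3e-05) with shYap-1 and by 1.29 (adjusted p = 1.13e-08) with shYap-2. Cd63, a tetraspanin gene whose product binds TIMP1, rose by 0.73 and 0.59 (adjusted p = 3.36e-05 and 8.11e-08). The syndecan genes Sdc1 (0.72 and 0.76) and Sdc4 (0.62 and 0.60) rose as well (adjusted p = 0.000128 and 4.93e-07, and 0.000233 and 2.26e-06).

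Among 14 tested ADAM and ADAMTS protease genes, 5 were called higher and 6 lower with shYap-1, and the counts were the same with shYap-2 (medians -0.18 and -0.08). The 5 include Adamts7, which passed the filter only through the knockdown libraries. Without it 4 of 13 were higher and 6 of 13 lower with either hairpin (medians -0.19 and -0.16). The share called higher is near or below the 37.6% and 43.2% over all tested genes, of which 27.6% and 30.5% were called lower. Adamts1, a secreted protease gene with aggrecan and versican among its substrates, fell by 2.28 and 1.84 (adjusted p = 1.26e-06 and 1.09e-08). It had 4.35 ± 0.342 FPKM with shYap-1, 6.25 ± 0.207 with shYap-2 and 25.0 ± 1.07 with shCTRL (SD, n = 3 each). Adam9, a surface sheddase gene, fell by 1.69 and 1.56 (adjusted p = 2e-06 and 4.98e-09). Adamts4, an aggrecanase gene, rose by 1.76 and 1.58 (adjusted p = 4.59e-06 and 1.32e-07), and Adam8 rose by 0.58 and 0.54 (adjusted p = 0.000362 and 3.87e-06).

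Of 4 tested genes of membrane serine proteases and their inhibitors, 3 rose and 1 fell with either hairpin, beside 37.6% and 43.2% of all tested genes called higher and 27.6% and 30.5% lower. Spint1 and Spint2, which encode inhibitors of matriptase and other surface proteases, rose by 1.52 and 1.31 (adjusted p = 5.14e-06 and 1.01e-08) and by 0.51 and 0.47 (adjusted p = 0.000644 and 1.94e-06). The protease gene Prss8 rose by 0.96 and 0.94 (adjusted p = 5.64e-05 and 1.27e-05). St14, matriptase itself, fell by 0.40 and 0.35 (adjusted p = 0.0076 and 2.96e-05).

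**Figure D5:**
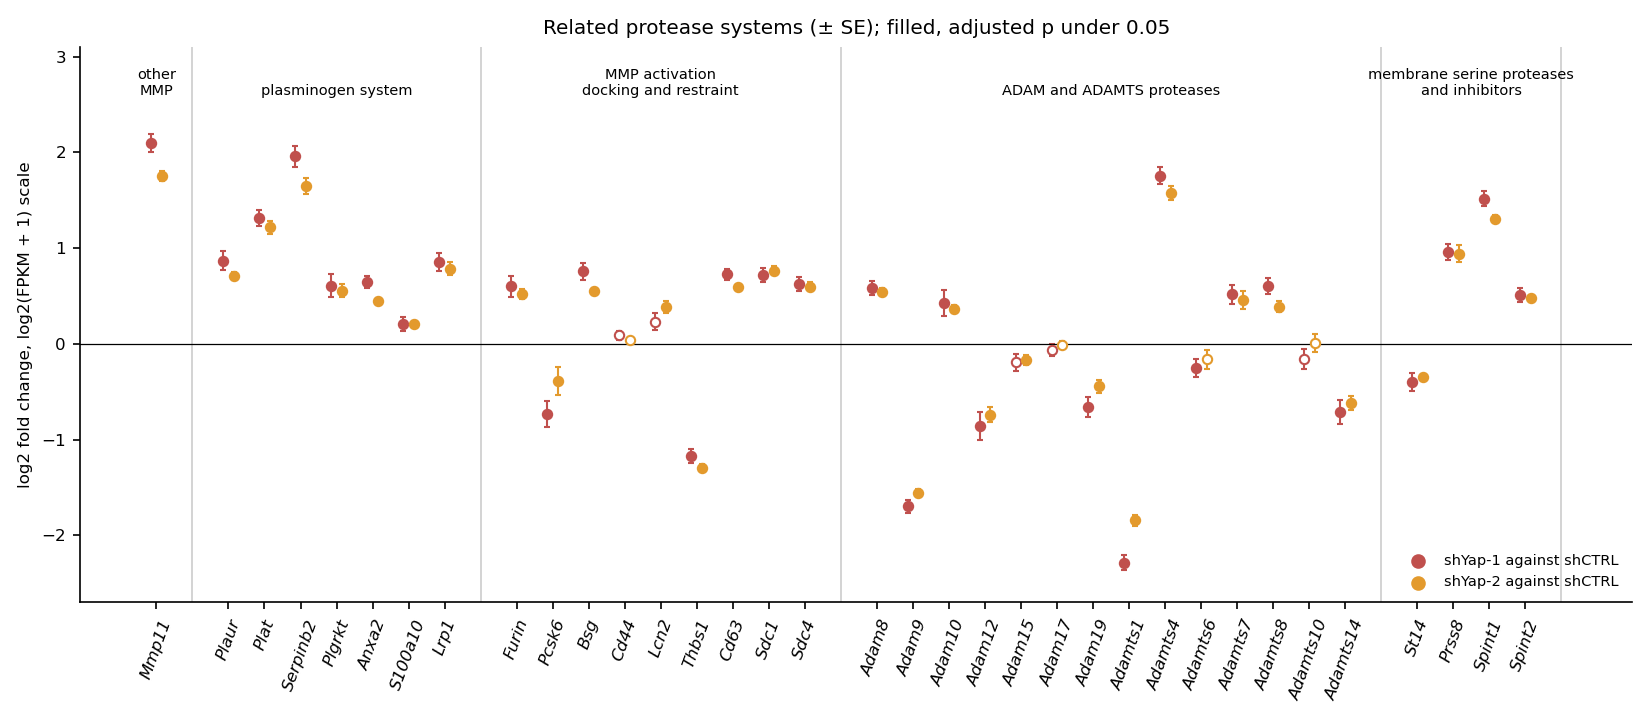
Log2 fold change ± SE on the log2(FPKM + 1) scale (y axis) of tested genes of 5 related lists (x axis), with shYap-1 against shCTRL in red and shYap-2 against shCTRL in orange. Filled points passed an adjusted p of 0.05. Points of the plasminogen system lie above 0, whereas ADAM and ADAMTS genes lie on both sides, from Adamts1 at -2.28 to Adamts4 at 1.76 with shYap-1. Serpinb2 and Adamts7 passed the filter on low values only through the knockdown libraries, so their points could be filled only above 0.

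Likeness of pattern was described by Pearson's r of log2(FPKM + 1) over the 9 libraries, whose groups all such genes share. The genes most like Mmp9 were Dglucy (r = 0.998), Eif4ebp2 (r = 0.998) and Gltp (r = 0.997), and 2716 of 10732 other genes had r above 0.9 with it. Those most like Timp1 included Capns1 and Dtd2 (r = 0.999 each), among 2967 above 0.9. Those most like Plau were Cdkn1a (r = 0.987), Grasp (r = 0.987) and Nrarp (r = 0.986), among 808 above 0.9.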

How the data were processed

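RNA of 9 libraries of 4T1 cells was, per the labels' protocols, enriched with oligo(dT) beads and sequenced on an Illumina instrument. The authors deposited FPKM values per gene, rounded to 2 decimals, in 2 tables, 1 per hairpin, which share the 3 shCTRL libraries (0 shCTRL values differ between them). Per the submitters' processing notes, fastp 0.18.0, HISAT2 2.1.0, StringTie 1.3.4, RSEM and mm10 were used, without roles. The annotation used, any filters and whether strand was used are not given in the sources used here. GENCODE vM21 gave symbols for 16951 of 16962 genes.

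From these values, limma 3.58.1 in R 4.3.3 (eBayes with trend) was run on log2(FPKM + 1) for genes that reached 1 FPKM in 3 or more fitted libraries, with Benjamini-Hochberg adjustment over all tested genes at a threshold of 0.05. Tests of a hairpin against shCTRL used that hairpin's table, and shYap-2 against shYap-1 in 1 model of all 9 libraries. The smallest exact permutation p for 3 against 3 libraries is 0.1, so smaller p-values rest on the model. Depth was estimated in genes with 1 annotated transcript, by finding the number of fragments for which FPKM multiplied by exonic length comes out whole. Fragment numbers use the total exonic length and are approximate, most of all for genes with several transcripts, and cover counting error only. Both methods were also run on simulated data. For limma the simulated noise was independent between genes, so it did not cover shifts shared along GC content.

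The members, lists and alternatives were chosen with earlier results of these data known. All 10 members are named, and from each other protease list at most 4 genes, those lowest in adjusted p when both hairpins are averaged, plus the 3 genes most like Mmp9, Timp1 and Plau. Markers of cell types and genes named for position or after their values were seen fall outside this rule. Some genes are not reported here. Tables and figures were made with Python 3.11.15, pandas 2.3.3 and matplotlib 3.10.9. Alternatives changed the pseudocount (0.1), the filter (none, or 5 FPKM), the scaling (median of ratios) or the libraries fitted, dropped the trend, added replicate number as a block, removed a GC trend, or left out each library in turn.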

Additional observations from a re-analysis of the deposited data

Results flagged for a closer look

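Mmp3 was called different between the 2 hairpins in the main fit, and the call was not stable. It was 0.33 higher on the log2 scale with shYap-2 than with shYap-1 (limma, adjusted p = 0.0350; higher in each of 3 libraries than in any of 3). The means were 33.4 ± 0.883 FPKM with shYap-2 and 26.5 ± 2.44 FPKM with shYap-1 (SD, n = 3 each). Over 17 alternatives the adjusted p ranged from 0.00268 to 0.140, and the call ended in 10 of them. These include the fit of the 6 knockdown libraries alone (adjusted p = 0.113). Yap1 itself was 0.22 higher with shYap-2 (adjusted p = 0.0992), and its part in the difference was not tested.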

How the results depend on the processing

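Each member called with a hairpin against shCTRL kept its direction under every alternative that gave a value. The call was kept too, except that of Mmp15 with the GC trend removed. Removal of that trend also changed the sizes with shYap-1. Mmp9 then rose by 0.77, Timp1 by 0.76, Timp2 by 1.00 and Plau by 0.16, each less than in the main fit. Mmp3 then rose by 0.75, more than in the main fit. Mmp15 had no value without a knockdown library, and neither Mmp13 nor Mmp15 under the filter at 5 FPKM. Mmp14 with shYap-1 turned to -0.24 with the GC trend removed, so that 1 member was called lower with shYap-1; with shYap-2, 1 was called lower with that correction and with median-of-ratios scaling, and Mmp10 (0.14) was called without the trend (adjusted p = 0.0403). Leaving out a library, the comparison of the hairpins had 1 to 886 genes higher and 0 to 760 lower, and 0 to 1 members higher. These gene counts moved with every library left out; the highest came without shYap-1 replicate 2 and the lowest without shYap-2 replicate 2 or 3. With the GC trend removed, 708 genes were higher and 627 lower, with 1 member lower. In the 6 knockdown libraries alone, 0 genes and 0 members were called (limma; 1757 of 10608 genes at unadjusted p under 0.05). With the replicate block, 86 genes were higher and 55 lower, and 0 members were higher (Mmp3 at adjusted p = 0.0543); it changed no other call of a member. Deviations of same-numbered libraries correlated at -0.237 to 0.344, and not every library was most like its own number. These correlations cannot decide whether the numbers mark pairs, since deviations also followed GC content. Low depth limits Timp3, Mmp13 and Mmp15.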
